A study of Mus musculus with 45 samples.

Results

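A set of 10 genes that sense, cut or carry nucleotides and nucleosides, most of them at the cell surface, was followed through macrophage polarization. The mice carried human variants of FAMIN, an enzyme of purine nucleosides. They were the ectonucleotidase Entpd1, the P2 receptors P2rx4, P2rx7, P2ry2, P2ry6 and P2ry14, the adenosine receptors Adora2a and Adora2b, and the nucleoside transporters Slc29a1 and Slc29a3. The genes were picked by name, as known parts of the pathway, but with earlier results of these data known. Comparisons of the set with all genes are therefore descriptions. All 10 were found among the 29307 genes of the count table. Bone marrow-derived macrophages of C57BL/6N mice aged 6 to 10 weeks were grown for 6 days in M-CSF and sequenced as 45 libraries, 5 for each genotype and polarization. The genotypes were Faminp.254I (the human non-risk variant), Faminp.254V (the risk variant) and Faminp.284R (the variant of a monogenic disease), so every group carried an engineered Famin allele and none was wild-type. By the paper's methods, the grown cells were harvested, seeded again and polarized for a day before use. M0 cells were left unstimulated, M1 cells received IFN-γ plus LPS and M2 cells received IL-4. The 3 libraries that share a genotype and a number in their titles were treated as cultures of 1 mouse, giving 15 mice. A level is given as CPM, the count scaled to library size by TMM, and a level that is compared between genes is given as RPKM, which also divides by the length of the gene's exons.

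Stressed, dying and activated cells release ATP, UTP and other nucleotides, which act on neighboring cells through P2X channels and P2Y receptors. Ectoenzymes on the cell surface cut these nucleotides stepwise down to adenosine, which acts on its own G-protein-coupled receptors, and equilibrative nucleoside transporters carry adenosine and other nucleosides across membranes. In macrophages, ATP at P2rx7 is best known for triggering the inflammasome, whereas adenosine at Adora2a and Adora2b raises cyclic AMP and dampens inflammatory output.

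The libraries held 17239009 to 43740283 counted reads, with a median of 27553642. The summed level of the 6 macrophage markers was between 5430 and 11000 CPM in every library, and T cell, B cell, mast cell and erythroid markers stayed below 1 CPM in sum. Cxcl9 was 979 CPM or more in each M1 library and at most 1.45 CPM elsewhere, and Arg1 was 705 CPM or more in each M2 library and at most 40.8 CPM elsewhere. Of the other M1 markers, Nos2 was 3.01 CPM or more in each M1 library and at most 0.574 CPM elsewhere. Il12b did not pass 1 CPM in any library. Some markers of other cells moved with polarization. The 4 stroma markers, collagen genes among them, had a median sum of 34.3 CPM in M0 (17.0 to 89.0), 11.5 in M1 (6.7 to 20.7) and 17.8 in M2 (9.28 to 32.6). The 4 neutrophil markers had median sums of 18.7, 16.1 and 8.42 CPM and the 2 endothelial markers 3.83, 4.69 and 0.888 CPM in M0, M1 and M2. The 2 dendritic cell markers had median sums of 0.767, 0.515 and 7.44 CPM, nearly all of it Zbtb46. Their part in the differences between polarizations was not tested. In such bulk samples, fewer cells of a type and less RNA per cell cannot be told apart. Of the libraries, 3 stood apart. Faminp.254I M0 replicate 4 had 73 genes over 2-fold above every other M0 library and 14 below all of them, led by Ccl5 at 563 CPM against at most 13.5. The M2 library of the same mouse had 17 such genes above and 13 below, led by Saa3 at 134 CPM against at most 6.6. Faminp.254I M1 replicate 5 had 17 above, led by Retnla at 49.1 CPM and Arg1 at 40.8 CPM, both below 1 CPM in the other M1 libraries. No other library had more than 3 such genes. Results between polarizations were therefore also computed without these 3 libraries. Such counts cannot show a shift that libraries of 1 replicate number share across genotypes. In M1 replicate 2, Ccl5 was 93.3, 124 and 165 CPM in Faminp.254I, Faminp.254V and Faminp.284R, against 641 CPM or more in other M1 libraries. Nos2 was 3.01, 4.92 and 8.6 CPM there, against 17.8 CPM or more. Cxcl9 (979 to 1780 CPM) and Fcgr1 (1150 to 1160 CPM) overlapped other M1 libraries. No fit left the M1 replicate 2 libraries out together.

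Per length of transcript, P2ry6, a receptor for UDP, was the most abundant of the 10 in all polarizations, at 87.3 ± 8.12 RPKM in M0, 75.8 ± 3.94 in M1 and 107 ± 5.43 in M2 (SD, n = 15 each). In M0 it was followed by the ATP-gated channel P2rx4 (59.5 ± 8.37 RPKM) and by Entpd1 (56.4 ± 16.8 RPKM), whose libraries overlapped. P2rx7, Slc29a3 and Slc29a1 came next at 28.4 ± 4.86, 21.8 ± 4.37 and 18.8 ± 2.34 RPKM, each overlapping its neighbor in the order and all well above P2ry2 in every library. P2ry2, P2ry14 and Adora2b lay between 3.92 and 1.51 RPKM on average and overlapped in the same way. Adora2a was lowest in every polarization, with 0.185 RPKM in M0, 0.165 in M1 and 0.507 in M2, and was counted from only 4 to 72 reads per library. In M1 the order began with P2ry6, Entpd1 (62.1 RPKM), P2rx4 (44.3) and Slc29a3 (30.2), of which the first 3 overlapped as neighbors and Slc29a3 lay below P2rx4 and above P2rx7 without overlap. M1 cells had P2ry14 above P2ry2, at 9.73 ± 1.1 against 1.3 ± 0.176 RPKM, with no overlap. In M2, P2rx4 (58.9 RPKM) lay below P2ry6 and above Slc29a3 (22.9) without overlap, and Slc29a3, Entpd1 (18.9), P2rx7 (18.7) and Slc29a1 (16.8) overlapped as neighbors. M2 cells had Adora2b above P2ry2 and P2ry14, at 11.5 ± 3.07 RPKM, its lowest library (7.21) being just above the highest of P2ry2 (7.08).

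**Figure D1:**
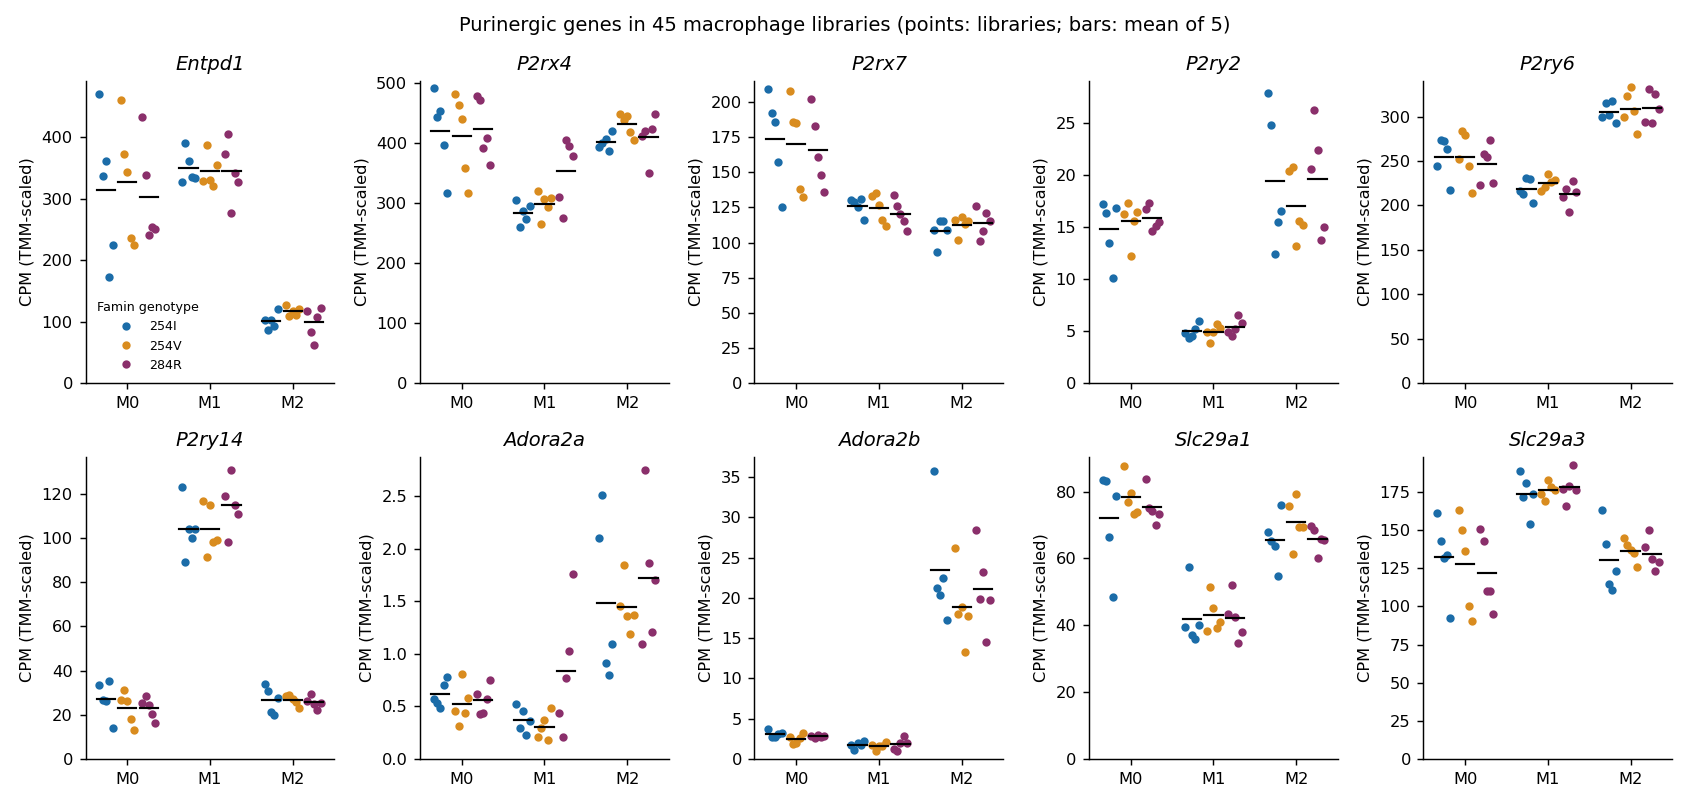
Level of each gene in all 45 libraries, as TMM-scaled CPM on linear axes that start at 0, by polarization (x axis) and Famin genotype (color). Points are libraries and bars are means of 5. P2ry14 stood between 89.1 and 131 CPM in M1 and at most 35.4 CPM in other cells, and Adora2b stood between 13.3 and 35.8 CPM in M2 and at most 3.67 CPM in other cells.

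Polarization accounted for most of the variation of these genes and genotype for little of it. Of the sum of squares of log2 CPM, the share between polarizations was 96.2% for Adora2b, 92.6% for P2ry14, 89.8% for P2ry2 and 87.1% for Entpd1, and it was lowest for Slc29a3 (55.7%) and P2rx4 (57.5%). The median over all genes tested was 68.5%. The share between genotypes was below 1.2% for 8 of the 10 genes, 3.16% for P2rx4 and 4.07% for Adora2a, beside a median of 0.819% over all genes tested.

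M1 cells expressed more P2ry14 and Slc29a3 than M0 cells and less of 6 others, namely P2rx4, P2rx7, P2ry2, P2ry6, Adora2b and Slc29a1. The edgeR quasi-likelihood test over 12905 genes called 37% of them higher and 40.3% lower in M1 at an adjusted p below 0.05, and 8 of the 10 is near that share. The median log2 fold change of the 10 genes was -0.36, and their median size regardless of direction was 0.46, beside -0.03 and 0.38 over all genes tested. M2 cells expressed more P2ry2, P2ry6, Adora2a and Adora2b and less Entpd1, P2rx7 and Slc29a1 than M0 cells. There the test called 36.8% of all genes higher and 39.6% lower, and 7 of the 10. Between M1 and M2, with 39% of genes higher and 40.1% lower in M1, all 10 were called, 4 higher in M1 (Entpd1, P2rx7, P2ry14 and Slc29a3) and 6 lower. Their median size was then 1.19 on the log2 scale, beside 0.43 over all genes tested. The comparisons with M0 share the M0 libraries.

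**Figure D2:**
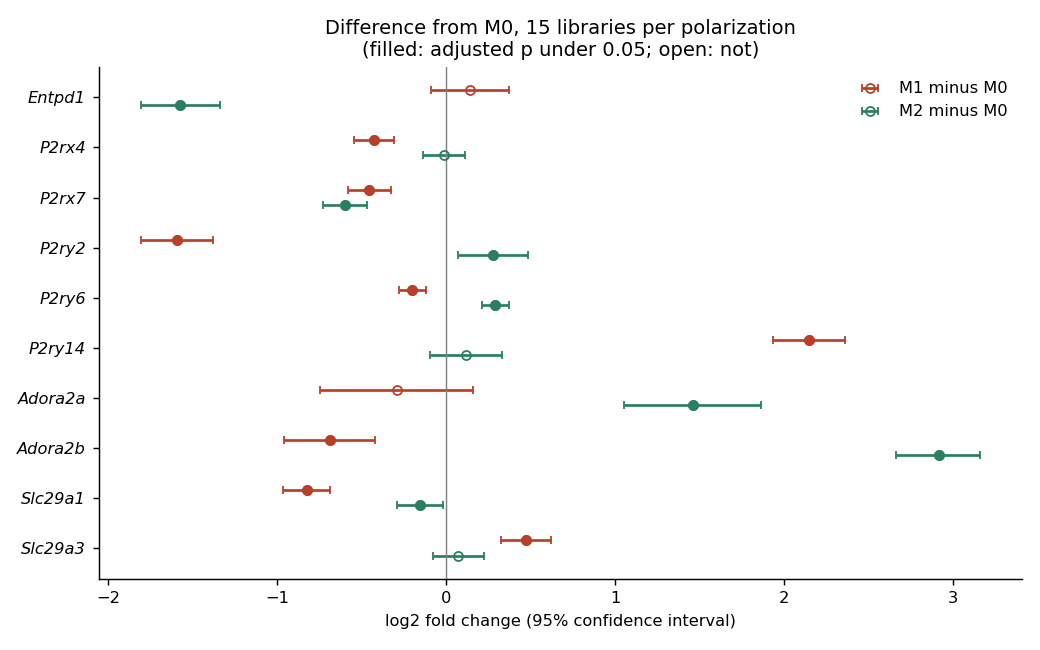
Log2 fold change (x axis) of each gene (y axis) from M0 to M1 (red) and from M0 to M2 (green), averaged over the 3 genotypes, with 95% confidence intervals from the edgeR fit of 45 libraries. Filled points passed an adjusted p of 0.05. P2ry14 stood at 2.15 in M1, Adora2b at 2.91 in M2, P2ry2 at -1.60 in M1 and Entpd1 at -1.58 in M2.

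Entpd1, also known as CD39 (chr19:40612366-40741602 in mm10), removes phosphate from extracellular ATP and ADP and so sets how much of either reaches the receptors. Its level was 173 to 471 CPM in M0 (median 337), 277 to 406 CPM in M1 (median 336) and 62.6 to 128 CPM in M2 (median 109). All M2 libraries lay below all M0 and all M1 libraries. It fell by 1.58 ± 0.12 (SE) on the log2 scale in M2 (2.98-fold lower, adjusted p = 1.77e-15) and was lower in 15 of 15 mice. Its M1 minus M0 difference was 0.14 ± 0.11, with a 95% interval from -0.09 to 0.37 and an adjusted p of 0.252, and it was higher in M1 in 10 of 15 mice.

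The ATP-gated channels P2rx4 (chr5:122707544-122729738) and P2rx7 (chr5:122643911-122691432), which are encoded side by side on chromosome 5 with a gap of 16.1 kb, both fell in M1 cells. P2rx4 was 316 to 491 CPM in M0 (median 439), 259 to 404 CPM in M1 (median 305) and 349 to 448 CPM in M2 (median 418). Its log2 fold change was -0.43 ± 0.06 in M1 (adjusted p = 3e-08, lower in 13 of 15 mice) and -0.02 in M2, with an interval from -0.14 to 0.11. P2rx7 was 125 to 209 CPM in M0 (median 183), 108 to 135 CPM in M1 (median 126) and 93.6 to 126 CPM in M2 (median 115). P2rx7 was lower than in M0 in each of the 15 mice after either stimulus, by 0.46 ± 0.06 in M1 (adjusted p = 3.15e-08) and 0.60 ± 0.06 in M2 (adjusted p = 4.91e-11) on the log2 scale, although the libraries overlapped. P2rx7 levels in M1 and M2 differed by only 0.15 ± 0.06 (adjusted p = 0.0336), and that call was lost when 1 of 4 mice was left out (Faminp.254I replicate 2, Faminp.254V replicate 2, or Faminp.284R replicate 2 or 3; adjusted p up to 0.0653).

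The P2Y receptors went different ways. P2ry2, a receptor for ATP and UTP (chr7:100996568-101012866), was 10.1 to 17.3 CPM in M0 (median 16.2) and 3.89 to 6.52 CPM in M1 (median 4.95), without overlap, which is 3.02-fold lower (log2 fold change -1.60 ± 0.11, adjusted p = 3.94e-17). In M2 it was 12.4 to 27.8 CPM (median 16.5) and its log2 fold change was 0.27 ± 0.10 (adjusted p = 0.0127), with 9 of 15 mice higher and 6 lower. P2ry6 (chr7:100937630-100974649) lies 21.9 kb from P2ry2 on chromosome 7, with no protein-coding gene between them. It was 214 to 284 CPM in M0 (median 254), 193 to 235 CPM in M1 (median 218) and 280 to 333 CPM in M2 (median 306). Its changes were small and went opposite ways, with log2 fold changes of -0.20 ± 0.04 in M1 (adjusted p = 1.21e-05) and 0.29 ± 0.04 in M2 (adjusted p = 1.45e-08). M1 and M2 libraries of P2ry6 did not overlap. P2ry14, a receptor for UDP-glucose and other UDP-sugars (chr3:59113855-59153618), was 12.9 to 35.4 CPM in M0 (median 26.1), 89.1 to 131 CPM in M1 (median 104) and 19.9 to 33.8 CPM in M2 (median 26.1). Every M1 library lay above every other library. The rise in M1 was 4.43-fold (log2 fold change 2.15 ± 0.11, adjusted p = 6.27e-21), whereas the M2 minus M0 difference was 0.11 with an interval from -0.10 to 0.33.

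Of the 10 genes, the adenosine receptors had the largest rises in M2. Adora2b (chr11:62248984-62266453) was 1.87 to 3.67 CPM in M0 (median 2.77) and 13.3 to 35.8 CPM in M2 (median 19.9), without overlap, and rose 7.53-fold (log2 fold change 2.91 ± 0.12, adjusted p = 5.36e-23). The dendritic cell marker Zbtb46 also went up in M2, from a median of 0.578 to 7.34 CPM, while Flt3, the other marker of that list, was at most 0.317 CPM in any library, and the part of dendritic cells in the Adora2b value was not tested. In M1 Adora2b was 0.999 to 2.84 CPM (median 1.73), a log2 fold change of -0.69 ± 0.14 (adjusted p = 1.58e-05), so that M2 exceeded M1 by 12.1-fold. Adora2a (chr10:75316877-75334784) was near the floor of the counts, at 0.311 to 0.812 CPM in M0 (9 to 28 reads), 0.183 to 1.76 CPM in M1 (4 to 36 reads) and 0.804 to 2.75 CPM in M2 (22 to 72 reads). It rose 2.74-fold in M2 (log2 fold change 1.46 ± 0.20, adjusted p = 2.4e-08) and was higher in M2 in 15 of 15 mice, although the highest M0 library was just above the lowest M2 library. In M1 its log2 fold change was -0.30, with an interval from -0.75 to 0.16.

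The transporters also separated. Slc29a1, the equilibrative transporter ENT1 of the plasma membrane (chr17:45585200-45599606), was 48.5 to 87.8 CPM in M0 (median 75.2), 34.7 to 57.4 CPM in M1 (median 40.0) and 54.9 to 79.3 CPM in M2 (median 67.8). It fell in M1 in all 15 mice (log2 fold change -0.83 ± 0.07, adjusted p = 5.05e-14). Its M2 minus M0 difference of -0.16 ± 0.07 passed the test by little (adjusted p = 0.0361), and leaving out 1 mouse ended the call for 9 of the 15 mice (Faminp.254I replicates 1 and 2, Faminp.254V replicates 1, 2, 4 and 5, and Faminp.284R replicates 1, 3 and 5; adjusted p up to 0.0832). Slc29a3, the related transporter ENT3 of lysosomes (chr10:60712072-60752794), was 90.6 to 163 CPM in M0 (median 134), 154 to 193 CPM in M1 (median 176) and 111 to 163 CPM in M2 (median 135). It rose in M1 in all 15 mice (log2 fold change 0.47 ± 0.07, adjusted p = 3.46e-07), and its M2 minus M0 difference was 0.07 with an interval from -0.08 to 0.22.

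The libraries of 2 genes did not overlap between M1 and M0 (P2ry2 and P2ry14) and of 2 between M2 and M0 (Entpd1 and Adora2b), whereas 5 of the 10 did not overlap between M1 and M2. Over all genes tested, 28.6% did not overlap between M1 and M0, 23.4% between M2 and M0 and 35.7% between M1 and M2. Without the 3 libraries that stood apart, the same 8, 7 and 10 genes were called, and the log2 fold changes were 2.19 for P2ry14 and -1.65 for P2ry2 in M1, 2.92 for Adora2b and -1.61 for Entpd1 in M2, and 0.10 for Entpd1 in M1. Faminp.254I M0 replicate 4 held the lowest M0 value of Entpd1 (173 CPM), P2ry2 (10.1 CPM) and Slc29a1 (48.5 CPM) and the highest of P2ry14 (35.4 CPM).

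For some of these genes, much of the spread among M0 libraries followed the replicate number, which all genotypes share. Entpd1 in M0 was 471, 460 and 433 CPM in the replicate 1 libraries of Faminp.254I, Faminp.254V and Faminp.284R, and 224, 224 and 250 CPM in their replicate 5 libraries. P2rx7 was 209, 208 and 202 CPM in replicate 1 and 125, 132 and 136 CPM in replicate 5. Slc29a3 was 161, 163 and 151 CPM in replicate 1 and 92.6, 90.6 and 94.9 CPM in replicate 5. For these 3 genes, M0 libraries that shared a number were closer across genotypes than replicates 1 and 5 of 1 genotype were. The number took 93.5% of the sum of squares of P2rx7 in M0, 88% of P2rx4, 87.6% of Slc29a3 and 84.4% of Entpd1, beside a median of 61.4% over all genes tested. P2ry6 (79.7%) and P2ry14 (73.5%) were also above that median in M0, and P2ry2, Slc29a1, Adora2a and Adora2b were below it (55.4%, 53.4%, 41.1% and 38.4%). In M1 the share was highest for Slc29a1 (84.3%), P2ry2 (78%), P2rx7 (74.8%), Adora2b (70.3%), P2ry14 (69%) and Entpd1 (58.2%), and the other 4 genes had 18.3% to 32.7%, with a median over all genes of 50.2%. In M2 it ran from 12.4% for P2rx4 to 71.5% for P2rx7, with a median over all genes of 48%. What the number stands for (a day, a litter or a batch) is not given in the sources used here.

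**Figure D3:**
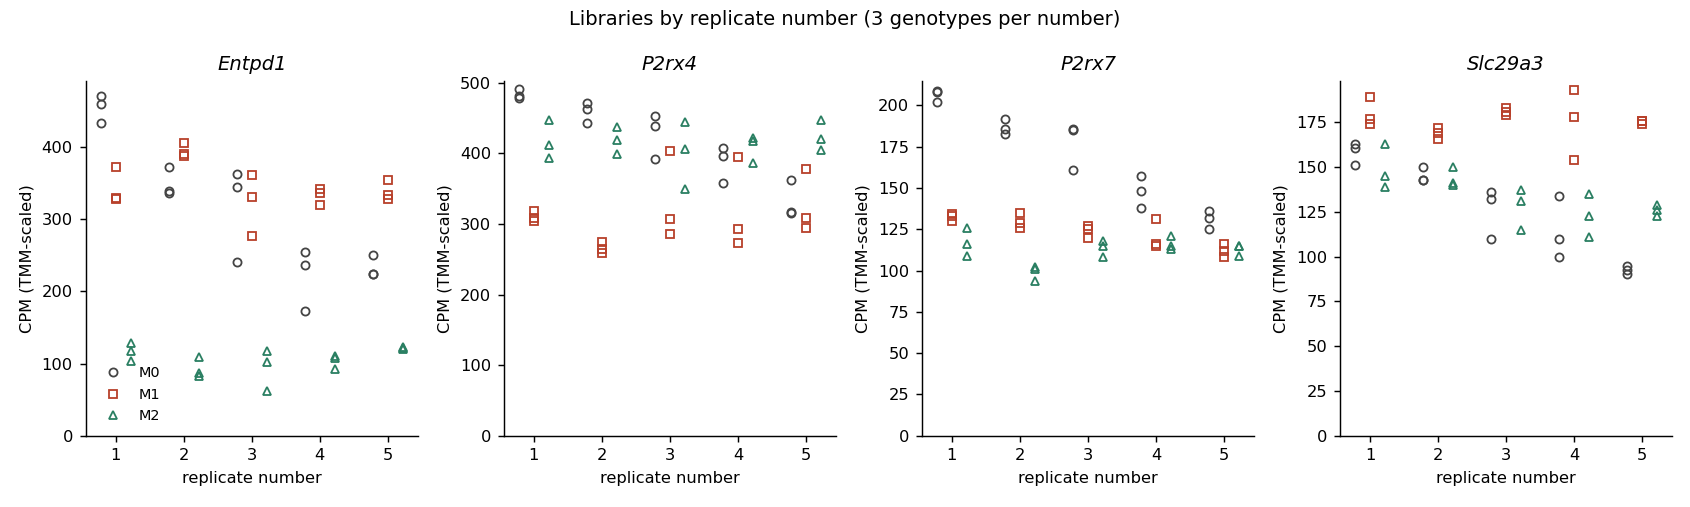
Level of 4 genes as TMM-scaled CPM (y axis, from 0) by replicate number (x axis), with 3 genotypes per number and polarization. Whether the numbers follow an order in time is not given in the sources used here. The M0 points (circles) of replicate 1 lie above those of replicate 5 in each panel, whereas the M1 and M2 points spread less.

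Set within a replicate number, the polarization differences with the largest sizes held for every number and some smaller ones did not. The mean M1 minus M0 difference of P2ry14, on the log2 scale of CPM plus 1, ran from 1.66 to 2.78 over the 5 numbers, and that of P2ry2 from -1.78 to -1.08. The M2 minus M0 difference ran from 2.20 to 2.92 for Adora2b and from -1.96 to -0.93 for Entpd1. Entpd1 in M1 had no single direction. It was below M0 in replicate 1 by a mean of 0.40, with 0 of 3 mice higher, and above M0 in replicates 4 and 5 by 0.61 and 0.54, with 3 of 3 mice higher in each. P2rx4 in M2 likewise ran from -0.21 in replicate 1 to 0.36 in replicate 5, and P2ry2 in M2 from 0.46 in replicate 2 to -0.05 in replicate 5. Slc29a3 in M1 was higher than M0 in every number, by 0.18 to 0.91.

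Within a genotype, the M1 calls and most M2 calls were found again. From M0 to M1 the same 8 genes were called, in the same directions, in Faminp.254I, Faminp.254V and Faminp.284R macrophages, with 60%, 62.5% and 63.4% of all genes called. The P2ry14 log2 fold change was 1.93 ± 0.18, 2.19 ± 0.19 and 2.32 ± 0.19 (SE), and that of P2ry2 was -1.58, -1.66 and -1.56. Some of these M1 calls rested on single mice. They were lost for P2ry6 in 254V without replicate 1, 2 or 3 and in 284R without replicate 3 (adjusted p up to 0.196), for Adora2b in 254V without replicate 2 or 5 and in 284R without replicate 1, 2, 3 or 5 (up to 0.121), for P2rx4 in 284R without replicate 1 or 2 (up to 0.303), and for Slc29a3 in 254I without replicate 5 (0.0546). From M0 to M2 the test called 60.6%, 57.4% and 59.9% of all genes, and 6, 5 and 5 of the 10. Slc29a1, called over all genotypes, passed in none of them (log2 fold changes -0.14, -0.14 and -0.19, adjusted p = 0.314, 0.317 and 0.162). Entpd1, P2rx7, P2ry6, Adora2a and Adora2b were called in each genotype, and the Adora2b log2 fold change was 2.91, 2.90 and 2.92 (SE 0.22 in each). The further call in Faminp.254I was P2ry2 (0.39 ± 0.17, adjusted p = 0.049), which failed in 15 of 23 alternative settings (adjusted p up to 0.196), among them those without 254I replicate 1, 2 or 4, 254V replicate 1, 4 or 5, or 284R replicate 1 or 3. Its differences of 0.13 in Faminp.254V and 0.31 in Faminp.284R did not pass. Of the interaction tests, in which the change of 284R or 254V against 254I from M0 to M1 or M2 was asked directly, none was called for these genes, and 0% of all genes were. At an unadjusted p below 0.05 they held 2 of the 10, both for 284R from M0 to M1 (P2rx4 at 0.30 and Adora2a at 1.28, adjusted p = 1 for each), beside 356 of 12905 genes.

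Between genotypes, none of the 10 genes was called in M0, M1 or M2 in any of the 9 comparisons. Of all genes, 0.263% were called for 284R minus 254I in M1, 0.00775% for the same pair in M2, 0.0775% for 284R minus 254V in M1 and 0% in the other 6 comparisons. With the replicate number as a block, the count of called genes in M1 went from 34 to 64 for 284R minus 254I and from 10 to 36 for 284R minus 254V, and none of the 10 was among them. At an unadjusted p below 0.05 there were 2 of the 10 in each of the 284R comparisons in M1, beside 864 (against 254I) and 799 (against 254V) of 12905 genes, and 0 of the 10 in the other 7 comparisons, and DESeq2 and limma-voom called none either. The intervals come from the fit without the replicate number, which uses 1 estimate of spread per gene for all polarizations. They show which sizes of difference that fit leaves possible, and intervals within replicate numbers are not given. For P2ry6 the 9 log2 differences lay between -0.08 and 0.04 and their 95% intervals between -0.22 and 0.18. For P2rx7, Slc29a1 and Slc29a3 the intervals stayed within -0.38 and 0.36. Those of P2rx4 reached from -0.28 to 0.52, of P2ry2 from -0.54 to 0.55, of P2ry14 from -0.62 to 0.50, of Entpd1 from -0.63 to 0.61 and of Adora2b from -0.75 to 0.68. Adora2a had the widest, from -1.11 to 2.18. Counts summed over the 3 cultures of each mouse gave none of the 10 and 0% of 13555 genes for any pair of genotypes. At an unadjusted p below 0.05 these sums had P2rx4 (284R minus 254I, 0.12, adjusted p = 1) and Adora2a (284R minus 254V, 0.48, adjusted p = 1), beside 325 and 372 of 13555 genes.

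P2rx4 and Adora2a were the genes below an unadjusted p of 0.05 in M1, and their 284R libraries were uneven. P2rx4 was 309, 275, 404, 395 and 378 CPM in Faminp.284R M1 replicates 1 to 5, against 259 to 319 CPM in the 10 M1 libraries of the other genotypes. Adora2a was 0.435, 0.208, 0.767, 1.03 and 1.76 CPM, against 0.183 to 0.525 CPM. Replicates 3, 4 and 5 were thus above all other M1 libraries for both genes and replicates 1 and 2 were not. The log2 fold change of 284R minus 254I in M1 was 0.31 ± 0.10 for P2rx4 (adjusted p = 0.368 in edgeR's test) and 1.13 ± 0.39 for Adora2a (adjusted p = 0.395). Against 254V it was 0.24 for P2rx4 (adjusted p = 0.738) and 1.38 for Adora2a (adjusted p = 0.298). Within replicate numbers, on the scale of CPM plus 1, P2rx4 in 284R minus 254I was 0.02, 0.09, 0.49, 0.53 and 0.36, and it was higher than 254V in 4 of 5 numbers (-0.05 in number 1). Adora2a on that scale was -0.09, -0.10, 0.28, 0.73 and 1.02 against 254I, and higher than 254V in 4 of 5 numbers (-0.10 in number 2). The same replicates 3, 4 and 5 had the highest Nos2, the inducible nitric oxide synthase, at 81.5, 149 and 131 CPM, beside 25.6 and 8.6 CPM in replicates 1 and 2 and a median of 19.1 CPM in the other genotypes. Within numbers 1 and 2, Nos2 in 284R was also above 254I (19.0 and 3.01 CPM) and 254V (19.2 and 4.92 CPM). Replicates 3, 4 and 5 of 284R also had the highest Cxcl9, at 5340, 4720 and 5130 CPM against at most 3660 CPM. The part of what raised Nos2 and Cxcl9 in these libraries in the P2rx4 and Adora2a values was not tested. Leaving out Faminp.284R replicate 2 brought Adora2a past edgeR's test against 254V (log2 fold change 1.63, adjusted p = 0.024). Over the alternative tests and settings, its adjusted p against 254V ran from 0.024 to 1. For 284R minus 254I in M1, the lowest adjusted p over these was 0.0575 for P2rx4 and 0.0551 for Adora2a.

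**Figure D4:**
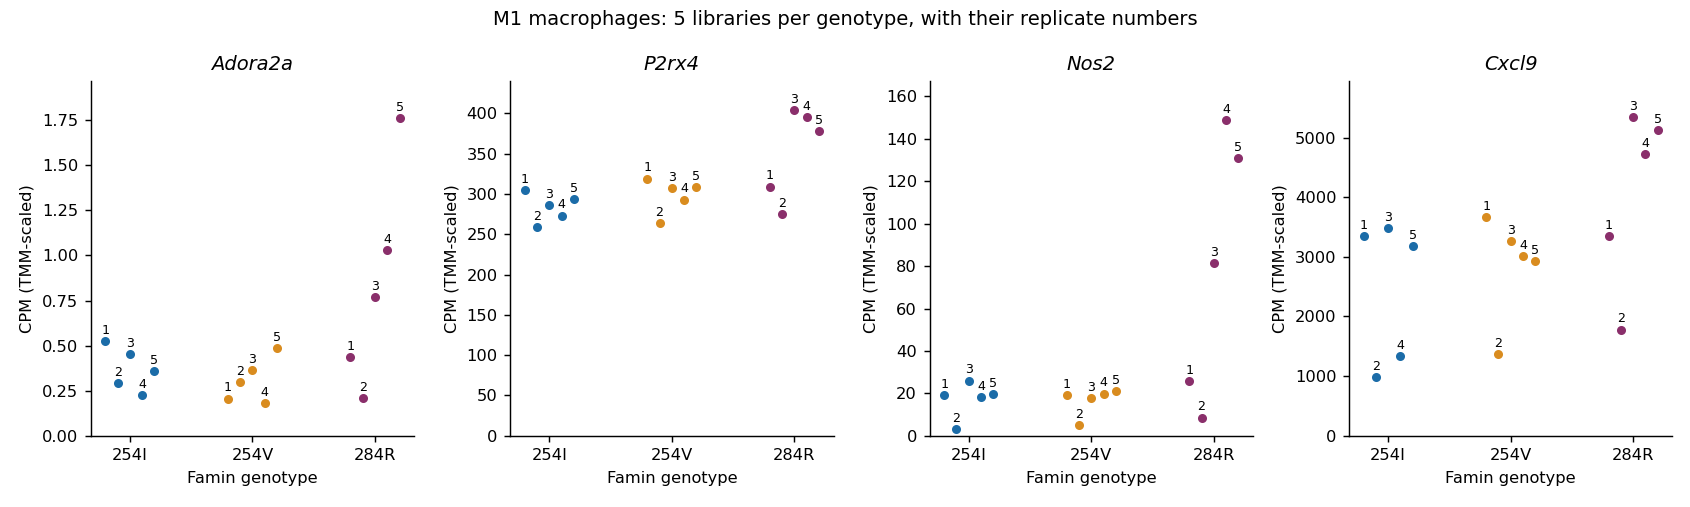
Level of 4 genes in the 15 M1 libraries as TMM-scaled CPM (y axis, from 0) by Famin genotype (x axis), with the replicate number beside each point. Replicates 3, 4 and 5 of 284R lie above all other libraries for Adora2a, P2rx4, Nos2 and Cxcl9.

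Around these genes, the pathway holds other receptors, ectoenzymes, transporters and ATP release channels. Of 53 further names, which can include more than 1 name for a gene, 48 were found in the count table by that symbol and 26 had enough reads to be tested. In M1, 14 of the 26 rose and 9 fell, beside 37% of all genes called higher and 40.3% called lower. Their median log2 fold change was 0.56, beside -0.03 over all genes tested. In M2, 7 rose and 16 fell, beside 36.8% of all genes called higher and 39.6% called lower. Their median was then -0.51, beside -0.02. The further adenosine receptor with enough reads, Adora3, rose in M1 (4.74-fold). Both NAD ectoenzymes tested, Cd38 and Bst1, rose in M1, and Bst1 went from a median of 18.9 CPM to 294 CPM (14.7-fold, adjusted p = 8.34e-32). Of 8 genes listed as other ectoenzymes, Ada and Dpp4 included, 5 rose and 2 fell in M1, and 2 rose and 6 fell in M2. The shares of all genes given above stand beside these counts too. Ada, adenosine deaminase, rose 4.98-fold in M1, from a median of 5.25 to 25.1 CPM, and Dpp4, a peptidase of the cell surface, went from 0.258 to 7.52 CPM (27.6-fold). Enpp4 rose 5.61-fold in M1 and fell in M2 (8.79-fold lower), whereas Enpp1, which makes AMP and pyrophosphate from ATP, fell in M1 (9.22-fold lower). Entpd5 fell in M1 by less (1.79-fold lower). Nt5e, the AMP ectonucleotidase CD73, had too few reads to be tested.

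Of the other P2Y receptors, the ADP receptor P2ry1 went from a median of 9.42 CPM in M0 to 0.864 CPM in M1 (9.64-fold lower, adjusted p = 2.57e-22) and to 75.8 CPM in M2 (8.37-fold higher, adjusted p = 1.83e-24), without overlap. P2ry12 and P2ry13, also receptors for ADP, fell in M2 (4.46-fold and 6.17-fold lower). P2ry10b, listed with the P2Y receptors by its name only, rose there from a median of 36.8 to 53.2 CPM. P2rx5 rose 10.3-fold in M2, from 0.545 to 4.87 CPM, and P2rx1 fell in M1 from 0.36 to 0.113 CPM (3.13-fold lower). Slc29a2, the transporter ENT2, rose 1.96-fold in M2, and Enpp2 rose 2.69-fold at a low level, from a median of 0.18 to 0.505 CPM. Among ATP release genes, Calhm6 went from a median of 7.17 CPM to 297 CPM in M1 (43.8-fold, adjusted p = 2.15e-30) and fell in M2 (5.31-fold lower). Calhm5 fell in M2 from a median of 0.339 to 0.038 CPM, where the lowest library was at 0, and the connexin gene Gja1 fell in M1 (1.79-fold lower).

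**Figure D5:**
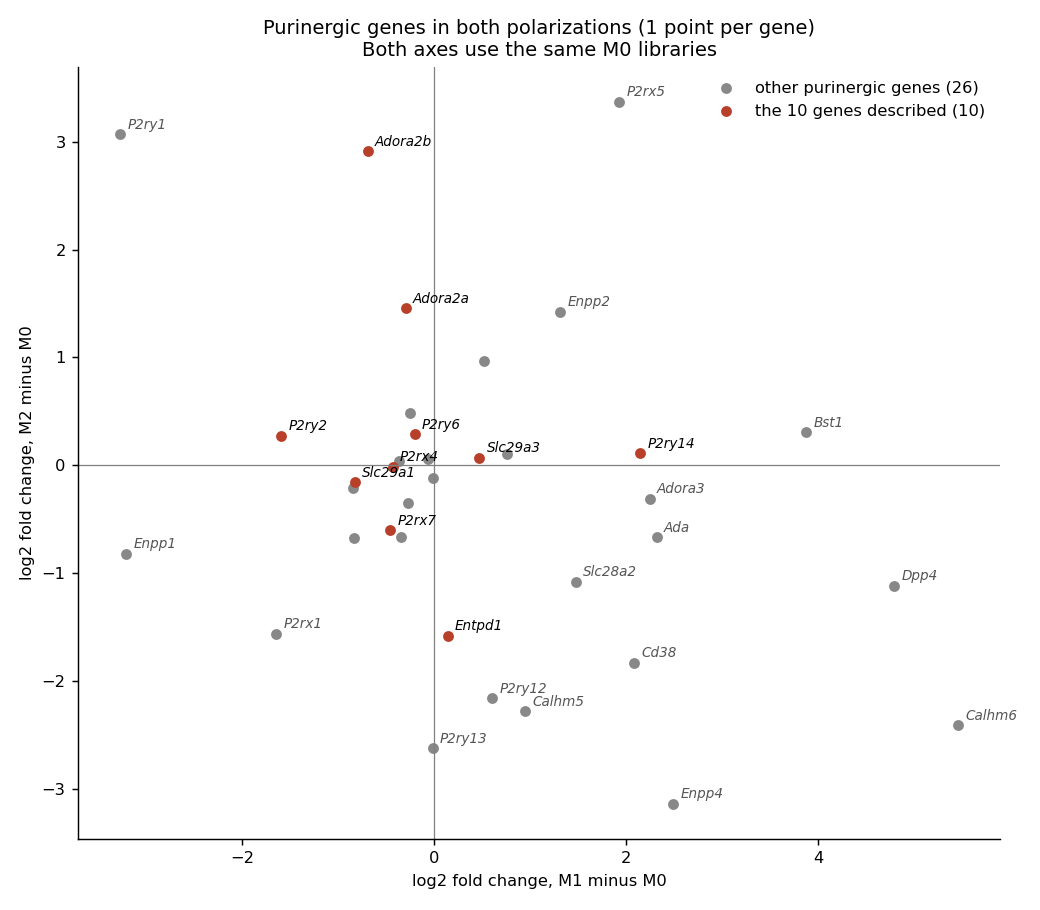
Log2 fold change from M0 to M1 (x axis) against that from M0 to M2 (y axis) for the 10 genes (red) and the 26 other purinergic genes tested (grey), 1 point per gene. Both axes use the same M0 libraries, so no relation between them is read. P2ry1, at -3.27 and 3.07, and Adora2b, at -0.69 and 2.91, lie at the upper left, and Calhm6, at 5.45 and -2.41, lies at the lower right.

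The genes whose mean profile over the 9 groups was most like that of P2ry14 were Tspo, Tapbp and Tspoap1, with root mean square differences of 0.05, 0.06 and 0.07 between centred log2 profiles. The median over 12895 genes was 1.01. For Adora2b they were Wwc1, Zbtb46 and Ceacam19 (0.07, 0.13 and 0.14, median 1.34).

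Promoters are shown for P2ry14 and Adora2b, which had the largest change of the 10 in M1 and in M2, and for Entpd1, which had the largest fall in M2. RefSeq windows of 300 bases around annotated start sites (GRCm38.p6, the mm10 assembly) were given for 8 of the 10 genes, in 21 windows, and not for P2ry6 and Adora2a. A search of both strands found none of these windows to hold the STAT-type motif TTCNNNGAA, its form with 1 more N in the spacer, the interferon-response core GAAANNGAA or the kappaB-like motif GGGNNTTTC. Over 32841 windows of the same length, 8.3%, 6.95%, 8.56% and 4.36% held them, with overlaps between motifs allowed. No match says only that these letters were not in these windows. The windows differed in CG pairs, with 27 in that of Adora2b, 23 in the window at the gene start of Entpd1 30 and 28 in those of P2ry2, and 1 to 4 in the 4 windows of P2ry14, beside a median of 7. The stretches before the annotated gene starts were these, in the direction of the gene, with CG pairs in capitals.
Adora2b: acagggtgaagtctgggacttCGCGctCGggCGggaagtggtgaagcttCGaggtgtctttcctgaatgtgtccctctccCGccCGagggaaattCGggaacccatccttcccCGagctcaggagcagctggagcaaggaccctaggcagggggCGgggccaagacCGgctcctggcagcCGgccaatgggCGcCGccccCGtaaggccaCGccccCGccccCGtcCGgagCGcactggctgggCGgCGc
P2ry14: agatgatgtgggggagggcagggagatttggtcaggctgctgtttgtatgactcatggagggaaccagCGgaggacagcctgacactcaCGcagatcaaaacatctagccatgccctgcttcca
Entpd1: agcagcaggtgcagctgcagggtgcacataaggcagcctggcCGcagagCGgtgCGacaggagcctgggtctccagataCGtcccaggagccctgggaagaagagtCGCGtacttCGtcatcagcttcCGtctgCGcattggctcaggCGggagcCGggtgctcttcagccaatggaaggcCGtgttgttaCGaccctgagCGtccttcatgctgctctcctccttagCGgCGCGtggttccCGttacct
They lie at chr11:62248734-62248983 (plus strand, Adora2b), chr3:59153619-59153742 (minus strand, P2ry14) and chr19:40612116-40612365 (plus strand, Entpd1). Those of Adora2b and Entpd1 end directly before the RefSeq start site, and that of P2ry14 ends 126 bases before it, where the GENCODE gene begins. The Adora2b and Entpd1 stretches hold 22 and 18 CG pairs and that of P2ry14, which is shorter, holds 2.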

How the data were processed

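The authors deposited counts of reads per Ensembl gene (not normalized) and a table of CPM for fewer genes. Per the labels and the study's methods, libraries were stranded, poly(A)-selected, single-end reads of mm10 aligned with HISAT2 after TrimGalore, whereas the series text names Cutadapt and STAR, and the program that counted reads and whether it used strand are not given in the sources used here. Reads recovered from the CPM deposited by the authors equaled the deposited counts for 100% of values (tolerance 0.01 reads, 11900 genes). They were tested as an alternative, which differs from the main fit only in holding fewer genes (9362, 9293 and 9604 genes called for M1 minus M0, M2 minus M0 and M1 minus M2).

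Symbols, exon lengths and positions came from GENCODE, which matched 29146 of 29307 gene IDs. Med12l overlaps P2ry14 on the opposite strand, with no shared exon bases, and was at most 3.31 CPM. Gm17080 shares 275 exon bases with Slc29a1 and was at most 0.112 CPM. Counts were fitted with edgeR 4.0.16 (TMM, filterByExpr over 9 groups, robust quasi-likelihood), in R 4.3.3, in 1 model of 45 libraries, and p-values were Benjamini-Hochberg adjusted over 12905 genes. Counts summed per mouse (15 sums, 13555 genes) were used for genotypes averaged over polarizations. Levels were given a pseudocount of 1 CPM where logged. Intervals are 95% from the fit. The script was tested on simulated data. DESeq2 1.42.0 and limma-voom (limma 3.58.1) were alternatives, with other scalings, filters, blocks and each mouse left out.

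The study's groups came from sample titles. Same-numbered libraries of different genotypes deviated together in M0 (correlation of deviations 0.12 to 0.85, 15 of 15 pairs over 0.1) and M1 (0.27 to 0.85, 15 of 15), less so in M2 (-0.37 to 0.74, 13 of 15). Libraries of 1 genotype and number in different polarizations had 38 of 45 pairs over 0.1 (-0.17 to 0.62). The number therefore pairs libraries in M0 and M1 by the data, and the mouse pairs polarizations by the series' description of 5 mice per genotype.

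The 10 genes and all lists were chosen with earlier results of these data known. The text names all 10, of the other purinergic lists up to 5 called genes in each direction with the largest change per stimulus, and the 3 genes most like the member with the largest change for each stimulus. Adora3, Cd38, Nt5e and the genes beside the libraries that stand apart were added after their values were seen.

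The total count of each library is given with the results, and the 4 to 72 reads of Adora2a per library set the precision of its values.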

Additional observations from a re-analysis of the deposited data

Results flagged for a closer look

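In 3 of 90 groups of 5 libraries (10 genes in 9 groups), a library lay far from the other 4, by a gap that is large against the range of the group. About 1 group in 20 is singled out in this way by chance. P2rx7 was 93.6 CPM in Faminp.254I M2 replicate 2, below the next library at 109 CPM, and replicate 2 was also the lowest M2 library in the other genotypes (102 and 101 CPM). Adora2b was 35.8 CPM in Faminp.254I M2 replicate 1, above the next at 22.5 CPM, and replicate 1 was also the highest M2 library in the other genotypes (26.2 and 28.4 CPM). Slc29a1 was 57.4 CPM in Faminp.254I M1 replicate 2, above the next at 40.0 CPM, and replicate 2 was likewise the highest M1 library in the other genotypes (51.4 and 52.2 CPM).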

How the results depend on the processing

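Other tests (DESeq2, limma-voom), scalings, filters, fits of fewer libraries, blocks and the leaving out of each mouse kept the number of the 10 genes called within 1.5 times in every comparison, except that leaving out 1 mouse gave 0 to 1 for 284R minus 254V in M1. Of 30 log2 fold changes between polarizations, 27 kept direction and call under every alternative. The exceptions were Slc29a1 in M2 and P2rx7 between M1 and M2 (as given above) and P2rx4 in M2, which had no call and ran from -0.039 to 0.016 with 1 mouse left out. Of 60 within a genotype, 48 did. Limma-voom also lost Adora2b in M1 for 254V and 284R (adjusted p = 0.0985 and 0.0932), and the fit with no filter on low counts lost P2ry6 in M1 for 254V (0.0513). A filter of 10 reads in every library leaves Adora2a untested. Uncalled values that changed sign with 1 mouse left out ran from -0.159 to 0.004 (P2rx4 in M2, 254I), -0.12 to 0.009 (P2rx4 in M2, 284R), -0.20 to 0.18 (P2ry14 in M2, 254I), -0.097 to 0.045 (Slc29a3 in M2, 254I) and -0.038 to 0.26 (Entpd1 in M1, 254V). P2ry14 in M2 for 254I was 0 with limma-voom and 0.18 without the 3 libraries that stood apart, and Slc29a3 there was 0.045 without them. The cause of these changes was not tested.

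The replicate block with the mouse called 8, 7 and 10 of the 10 genes for M1 minus M0, M2 minus M0 and M1 minus M2, and kept the call of each of them within the genotypes. The block with the replicate number called 0 of them in every genotype comparison, so neither block changed a call of these genes. Over all genes, 284R minus 254I in M1 gave 34 calls, 64 with DESeq2 or the number block, 11 with limma-voom, 1 with only the libraries compared and 0 to 109 with 1 mouse left out. For 284R minus 254V in M1, there were 10 calls, 21 with DESeq2, 36 with the number block, 0 with limma-voom or only the libraries compared, 4 without a filter on low counts and 0 to 65 with 1 mouse left out. In the other comparisons of genotypes and their interactions, with 0 or 1 calls, alternatives gave at most 4. Reads recovered from the CPM table, an alternative added after the data were seen like the leaving out of 3 libraries, gave 9362, 9293 and 9604 calls for the polarizations against 9982, 9860 and 10211. These reads are the same counts for at most 11900 genes, against 12905 genes in the main fit. The numbers of calls thus have different totals, and this alternative is no independent check. Adora2a, with at most 72 reads per library, is the gene whose differences were least resolved at this depth.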
